A study of Mus musculus with 8 samples.

Results

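The genes described here encode subunits of the transcription factor NF-kB and the proteins that restrain it or that it induces to limit its own signal. They were chosen by symbol, as the list Nfkb1, Nfkb2, Rela, Relb, Nfkbia, Nfkbie, Bcl3, Tnfaip3, Birc3 and Traf1. Of these 10 genes, 9 had a probe set with a single gene symbol among the 18193 genes tested, and Nfkb1 was not analysed here. Expression was measured on Affymetrix Mouse Genome 430 2.0 microarrays in 3T3-L1 adipocytes. By the methods of the study, these cells were differentiated in the dish from mouse 3T3-L1 fibroblasts. The 8 arrays covered 3 models of insulin resistance, set up with long exposure to insulin (chronic insulin, CI, 2 arrays), with the cytokine tumour necrosis factor (TNF, 3 arrays) or with dexamethasone, a synthetic glucocorticoid (Dex, 3 arrays). All 8 samples had also received MnTBAP, an antioxidant manganese porphyrin, for the final 6 hours of treatment. Cells without the antioxidant and untreated cells were not analysed here, so each difference sets a model against another model and says nothing of the antioxidant. The labels give no doses of the model treatments and are silent on separate cultures within a model, so that the p-values cover the spread between these samples alone, which may be technical.

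NF-kB is a dimer that waits in the cytoplasm of resting cells, held by inhibitors of the IkB family. Cytokines such as TNF activate a kinase that marks the inhibitor for destruction, and the freed dimer enters the nucleus and switches on inflammatory genes. Among its targets are its own inhibitors and several of its subunits, so that the signal builds its own brake, and in fat cells this pathway links inflammation with a poor response to insulin.

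Levels are log2 intensities, and each difference between models is a difference of mean log2 intensity, given with its standard error (SE) from a limma fit of all 8 arrays. The words rose, fell and called are kept for genes where the Benjamini-Hochberg adjusted p over all genes was under 0.05 and the difference exceeded 0.5. Median intensities per array were 124.7 to 131.0, and Pearson's r across genes ran from 0.9955 to 0.9981 between arrays of a model and from 0.9827 to 0.9896 between arrays of different models. The lowest value within a model was that of TNF replicates 1 and 2. The Dex labels were checked on 7 genes that glucocorticoids induce, all of which were higher in Dex than in CI and than in TNF. Such a check cannot tell the TNF labels from the CI labels. Adipocyte markers averaged 12.76 to 12.84 per array in CI, 12.26 to 12.32 in TNF and 12.52 to 12.61 in Dex, over 10 measured of 12 listed. Against CI, 6 of the 10 fell in TNF and 3 in Dex and none rose, where 5.23% and 5.67% of all genes fell. Preadipocyte and fibroblast markers (10 of 11 measured) averaged 11.13 to 11.17, 11.42 to 11.63 and 10.58 to 10.67 in the same order. Against CI, 3 of the 10 rose in TNF and 4 fell in Dex, where 3.00% and 5.67% of all genes did so. Between TNF and Dex, 7 were higher in TNF and none lower, where 4.14% of all genes were higher. Macrophage and leukocyte markers (14 of 15 measured) averaged 7.15 to 7.19, 7.31 to 7.39 and 7.21 to 7.26. Of these 14, Cd14 and Lyz2 rose in TNF against CI (1.44 and 0.55), Cd14 rose in Dex against CI (0.98), and Lyz2 was higher in TNF than in Dex (0.95). Csf1r differed by 0.40 in TNF minus CI, below the threshold on size (limma adjusted p = 0.00228). Also below it were Ms4a1 in TNF (0.31, limma adjusted p = 0.023) and, in Dex against CI, Cd68 (0.31), Lyz2 (-0.40) and Laptm5 (-0.32), with limma adjusted p = 0.0413, 0.00157 and 0.0372. Ptprc, which marks all leukocytes, lay between 4.46 and 4.77 in every array and Adgre1, a macrophage marker, between 6.59 and 6.93. Itgam lay at 5.51 to 5.92, Mrc1 at 4.60 to 4.84, Itgax at 7.28 to 7.57 and Ms4a1 at 6.33 to 6.75. Cd3e lay at 8.14 to 8.48, above the median gene of the arrays (7.89 to 7.93). Beta-actin 3′ minus 5′ differences, a sign of RNA quality, were 0.66 and 0.54 in CI, 0.74, 0.71 and 0.83 in TNF, with 0.49, 0.49 and 0.75 in Dex. The part of these markers and of RNA quality in the differences below was not tested, and in such bulk samples fewer cells of a type and less RNA per cell cannot be told apart.

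TNF-treated adipocytes differed most from the other models in the inhibitor Nfkbie and the subunit Relb, whereas the other members differed little or unevenly. Against CI, 2 of the 9 members rose in TNF (Relb and Nfkbie) and none fell, where 3.00% of all genes rose and 5.23% fell. Against CI, 1 of 9 rose in Dex (Nfkbia) and none fell, where 3.33% of all genes rose and 5.67% fell. Against Dex, 2 of 9 were higher in TNF (Relb and Nfkbie) and none lower, where 4.14% of all genes were higher and 3.16% lower. The median difference of the 9 members was 0.34 for TNF minus CI, -0.01 for Dex minus CI and 0.37 for TNF minus Dex, beside medians of 0.03, 0.02 and 0.01 over all genes. The comparisons share samples, so their values are not independent of each other.

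**Figure D1:**
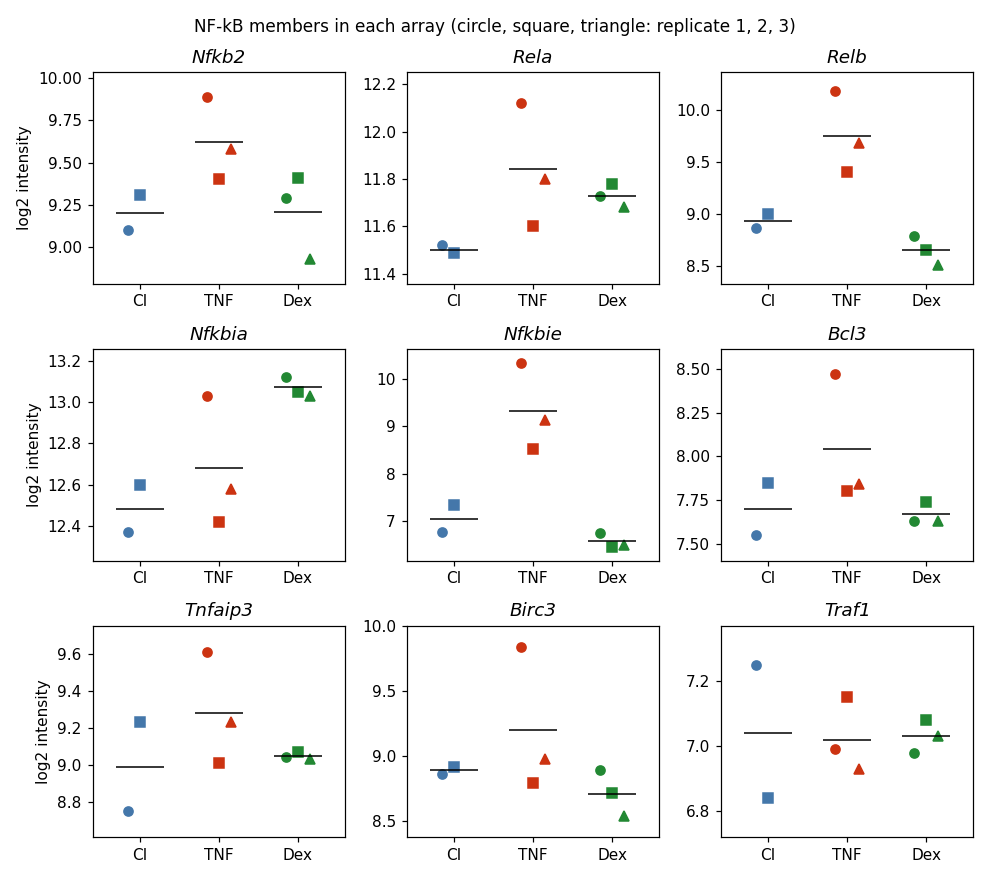
Log2 intensity (vertical axis, a separate scale for each gene) of the 9 measured members in the CI, TNF and Dex arrays, with circles, squares and triangles for replicates 1, 2 and 3 and a black bar at each model's mean. The TNF arrays lay above all other arrays for Relb and Nfkbie, and TNF replicate 1 was the highest of the 8 arrays for 7 of the 9 genes.

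Of the DNA-binding subunits, Relb varied most between the models. Relb protein pairs with the processed product of Nfkb2 in the slower, alternative branch of the pathway, and its gene is itself induced by NF-kB. Its log2 intensity was 8.86 and 9.0 in CI, 10.18, 9.40 and 9.68 in TNF, with 8.79, 8.65 and 8.51 in Dex. The TNF arrays lay above every CI and Dex array, while the Dex arrays lay below both CI arrays. Relb was 1.77-fold higher in TNF than in CI (0.82 ± 0.18 SE, limma adjusted p = 0.00664), but without CI replicate 1 it did not pass (0.75, limma adjusted p = 0.0595). It was 2.15-fold higher in TNF than in Dex (1.10 ± 0.16, limma adjusted p = 0.000427), and the difference between Dex and CI did not pass (-0.28 ± 0.18, 95% confidence interval -0.67 to 0.10).

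Rela encodes the main activating subunit, whose activity is set largely by its release from IkB rather than by its RNA. It lay at 11.52 and 11.49 in CI, 12.12, 11.60 and 11.80 in TNF, with 11.73, 11.78 and 11.68 in Dex. All TNF and all Dex arrays were above the CI arrays, but TNF and Dex overlapped. The difference from CI was 0.34 ± 0.12 in TNF (limma adjusted p = 0.0684) and 0.23 ± 0.12 in Dex (limma adjusted p = 0.224), and neither passed. Nfkb2 encodes a precursor that acts as an inhibitor until it is cut into a DNA-binding subunit. Its levels were 9.10 and 9.31 in CI, 9.89, 9.40 and 9.58 in TNF, with 9.29, 9.41 and 8.93 in Dex. The TNF arrays lay above the CI arrays, and TNF replicate 2 fell just short of the highest Dex array. The difference was 0.42 ± 0.16 for TNF minus CI (limma adjusted p = 0.0778) and 0.41 ± 0.14 for TNF minus Dex (limma adjusted p = 0.0587). Without TNF replicate 2, Nfkb2 was called in both comparisons (0.53, limma adjusted p = 0.0396, and 0.52, limma adjusted p = 0.0303), and without Dex replicate 2 it was called for TNF minus Dex (0.51, limma adjusted p = 0.0444). A further probe set of Nfkb2 was called in none of the 3 comparisons, with 0.19 for TNF minus CI. By the array maker's suffix, this further set may also bind other transcripts.

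In these terms the TNF arrays were above all CI arrays for 4 members (Nfkb2, Rela, Relb and Nfkbie), or 4 of 9, against 28.3% of all genes. They were above all Dex arrays for 3 (Relb, Nfkbie and Bcl3), against 18.0% of all genes, and above both other models for 2 (Relb and Nfkbie), against 9.78% of all genes. The Dex arrays were above all CI arrays for Rela and Nfkbia, against 24.9% of all genes. They were above both other models for none of the members, against 9.23% of all genes, and above all TNF arrays for none, against 17.9% of all genes.

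Among the inhibitors, Nfkbie showed the widest range of all members. Its product, IkB epsilon, holds NF-kB dimers in the cytoplasm and is resynthesised after activation, later than IkB alpha. The log2 intensity was 6.76 and 7.35 in CI, 10.35, 8.52 and 9.13 in TNF, with 6.75, 6.46 and 6.50 in Dex. Every TNF array lay more than 1 log2 unit above the highest CI or Dex array, although the TNF arrays themselves spanned 1.83. Nfkbie was 4.85-fold higher in TNF than in CI (2.28 ± 0.39, limma adjusted p = 0.0017) and 6.78-fold higher than in Dex (2.76 ± 0.35, limma adjusted p = 0.000177). Dex and CI were not told apart (-0.48 ± 0.39, 95% confidence interval -1.34 to 0.37). Without TNF replicate 1 the differences were 1.77 from CI (limma adjusted p = 0.000127) and 2.25 from Dex (limma adjusted p = 6.76e-06). The CI and Dex values lay below the median gene of the arrays (7.89 to 7.93), and background was not measured here.

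A further probe set of Nfkbie gave 6.54 and 6.67 in CI, 9.20, 7.53 and 7.94 in TNF, with 6.54, 6.48 and 6.57 in Dex. Its TNF arrays again lay above all CI and Dex arrays, by a smaller margin, with differences of 1.62 ± 0.35 from CI (limma adjusted p = 0.00887 over 45037 probe sets, of which 6.64% were called) and 1.69 ± 0.31 from Dex (adjusted p = 0.0034). For this probe set the difference from CI did not pass once CI replicate 1 was left out (1.55, limma adjusted p = 0.0679). By the suffixes of the array maker, the set used above can match transcripts of different genes, whereas the further set matches several transcripts of the same gene.

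The promoter of Nfkbie is shown because this gene differed most between the models, and those of Nfkbia and Tnfaip3 because their products also feed back on NF-kB while their TNF and CI arrays overlapped. Each stretch holds the 250 bases before the start of the gene in the sense of the gene, from RefSeq on GRCm38.p6. Nfkbie lies on the plus strand (chr17:45555450-45555699), and Nfkbia (chr12:55492648-55492897) and Tnfaip3 (chr10:19015411-19015660) on the minus strand. Capitals mark matches to the 10-base NF-kB consensus GGGRNNYYCC, searched on both strands with overlapping matches allowed. In it R is A or G, Y is C or T, and N is any base.
Nfkbie: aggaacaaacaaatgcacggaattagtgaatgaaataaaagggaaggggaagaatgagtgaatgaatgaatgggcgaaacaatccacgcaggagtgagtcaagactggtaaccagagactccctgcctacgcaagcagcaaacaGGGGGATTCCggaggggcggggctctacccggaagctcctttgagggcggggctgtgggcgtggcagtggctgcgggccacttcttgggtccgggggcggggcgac
Nfkbia: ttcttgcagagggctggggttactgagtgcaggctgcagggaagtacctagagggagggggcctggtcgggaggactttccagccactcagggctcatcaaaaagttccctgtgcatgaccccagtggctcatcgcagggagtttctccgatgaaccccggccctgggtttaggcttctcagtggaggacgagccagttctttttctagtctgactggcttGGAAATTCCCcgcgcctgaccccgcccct
Tnfaip3: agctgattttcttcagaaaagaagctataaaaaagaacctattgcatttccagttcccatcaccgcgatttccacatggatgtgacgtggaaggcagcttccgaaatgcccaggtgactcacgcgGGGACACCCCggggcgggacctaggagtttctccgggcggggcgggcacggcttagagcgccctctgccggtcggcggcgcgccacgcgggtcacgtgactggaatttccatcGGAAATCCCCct
Promoter sequences were matched for 8 of the 10 listed genes (not Nfkb1 or Relb), some with several start sites, which gave 11 windows of 250 bases. The consensus was found in windows of 4 of these genes (Nfkb2, Nfkbia, Nfkbie and Tnfaip3), or 6 of 11 windows, against 7.25% of 32851 windows of all genes. Several of the matched windows belonged to Nfkb2 alone, so they are not separate genes, and the share of all genes with a match was not computed. The match lay 106 bases before the start in Nfkbie, 29 in Nfkbia, and 125 and 12 in Tnfaip3. A match describes the letters and is no evidence of binding, and genes with a match in their window included both called and uncalled members.

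Nfkbia encodes IkB alpha, the best known inhibitor, which NF-kB and glucocorticoids are both known to induce. It was highest in Dex rather than in TNF. The log2 intensity was 12.37 and 12.60 in CI, 13.03, 12.42 and 12.58 in TNF, with 13.12, 13.05 and 13.03 in Dex. The Dex arrays lay above both CI arrays and above TNF replicates 2 and 3, whereas TNF replicate 1 reached the level of the Dex arrays. Nfkbia was 1.5-fold higher in Dex than in CI (0.58 ± 0.15, limma adjusted p = 0.0145), but without CI replicate 1 it did not pass (0.47, limma adjusted p = 0.135). TNF did not differ from CI beyond the test (0.19 ± 0.15, 95% confidence interval -0.13 to 0.51). TNF minus Dex was -0.39 ± 0.13 (limma adjusted p = 0.0564), and without TNF replicate 1 Nfkbia was lower in TNF than in Dex (-0.57, limma adjusted p = 0.000844).

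Nfkbia had 5 probe sets, which allowed this order to be read again. In the fit of every probe set, 4 of the 5 were higher in Dex than in CI (7.34% of 45037 probe sets were called), with differences of 0.58, 0.81, 0.79 and 0.79, and the dimmest set differed by 0.29 ± 0.17 and did not pass. Without CI replicate 1 none of the 5 was called by limma, with differences from 0.02 to 0.61 (limma adjusted p = 0.0936 to 0.956). Against TNF, 3 of the 5 were called lower in TNF than in Dex (5.74% of probe sets were called), by 0.53, 0.65 and 0.81. By the array maker's suffix, the sets lower by 0.53 and 0.65 can match transcripts of different genes. All 5 were called lower in TNF without TNF replicate 1, with differences of -0.57, -0.71, -0.87, -1.02 and -0.51. For TNF minus CI none of the 5 was called, with or without TNF replicate 1. These sets were read on the same arrays and are not independent samples.

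**Figure D2:**
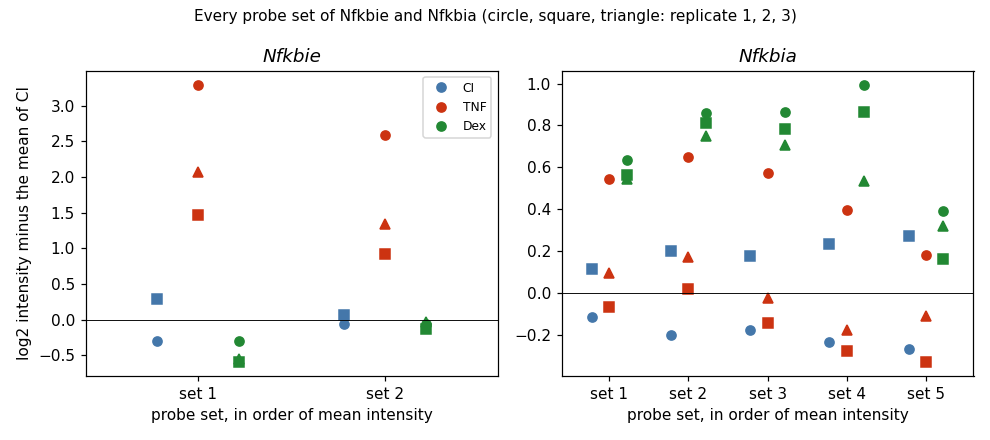
Log2 intensity minus the mean of the 2 CI arrays (vertical axis) for the 2 probe sets of Nfkbie and the 5 of Nfkbia, ordered by mean intensity, coloured by model and with circles, squares and triangles for replicates 1, 2 and 3. In both sets of Nfkbie the TNF arrays lay above the others, and in 4 of the 5 sets of Nfkbia the difference between Dex and CI was called.

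Bcl3 belongs to the IkB family but works in the nucleus, where it joins NF-kB dimers on DNA. It lay at 7.55 and 7.85 in CI, 8.47, 7.80 and 7.84 in TNF, with 7.63, 7.74 and 7.63 in Dex. The TNF arrays were above the Dex arrays, but 2 of them lay within the CI range, and replicate 1 alone stood higher. The differences did not pass for TNF minus CI (0.34 ± 0.17, limma adjusted p = 0.178) or TNF minus Dex (0.37 ± 0.15, limma adjusted p = 0.114).

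The remaining members act on the receptor complex upstream. Tnfaip3 encodes a ubiquitin-editing enzyme that shuts down signalling from the TNF receptor, and its loss causes inflammation in mice. It lay at 8.75 and 9.23 in CI, 9.61, 9.01 and 9.23 in TNF, with 9.04, 9.07 and 9.03 in Dex. The 3 groups overlapped, with a gap of 0.48 between the CI arrays, and TNF minus CI was 0.30 ± 0.16 (limma adjusted p = 0.222, 95% confidence interval -0.06 to 0.66). A dimmer probe set of Tnfaip3 gave -0.05 ± 0.13 for TNF minus CI (limma adjusted p = 0.834). Birc3 encodes a ubiquitin ligase that protects cells from TNF-induced death. It lay at 8.86 and 8.92 in CI, 9.84, 8.79 and 8.98 in TNF, with 8.89, 8.72 and 8.54 in Dex. Replicate 1 of TNF stood 0.95 above the CI mean while replicates 2 and 3 were within 0.10 of it, so the difference of 0.31 ± 0.24 (limma adjusted p = 0.379) became -0.01 without replicate 1. TNF minus Dex was 0.49 ± 0.21 (limma adjusted p = 0.136) for Birc3, and it was called without TNF replicate 2 (0.69, limma adjusted p = 0.0374). The dimmer probe set of Birc3 gave 0.14 ± 0.08 for TNF minus CI and 0.09 ± 0.07 for TNF minus Dex, and neither passed. Traf1 encodes an adaptor that NF-kB induces in lymphocytes and other cells. Its levels ran from 6.84 to 7.25 over all 8 arrays, below the median gene, and its differences were -0.02 ± 0.11 for TNF minus CI (95% confidence interval -0.27 to 0.22) and -0.01 for Dex minus CI. A dimmer probe set of Traf1 gave 0.28 ± 0.09 for TNF minus CI (limma adjusted p = 0.0578) and also did not pass.

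**Figure D3:**
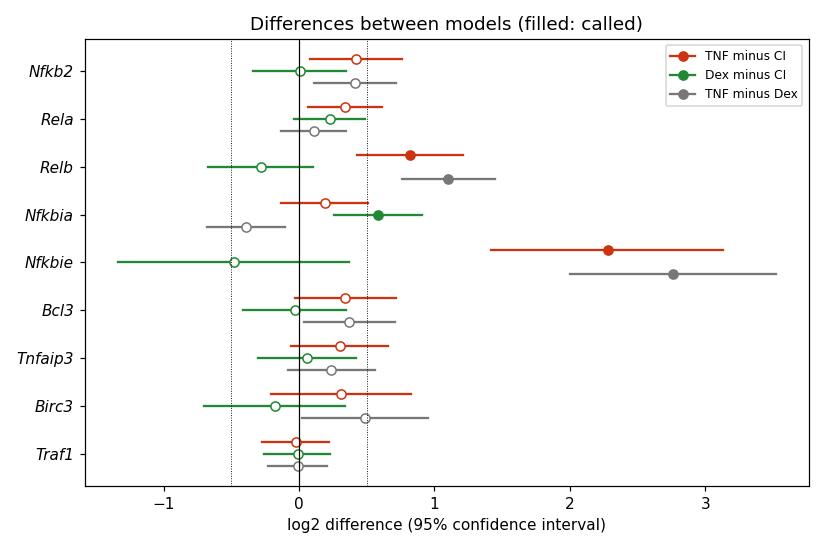
Log2 difference (horizontal axis) with its 95% confidence interval for each of the 9 members in the 3 comparisons, where filled points were called and dotted lines mark 0.5 in either direction. Calls are limited to Relb and Nfkbie in the comparisons with TNF and to Nfkbia for Dex minus CI.

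The spread within TNF had the same form in nearly every member. TNF replicate 1 was the highest and replicate 2 the lowest of the 3 TNF arrays in 8 of the 9 members, an order found in 19.4% of all genes, with Traf1 as the exception. Replicate 1 was the highest of all 8 arrays for 7 members, which was the case for 14.4% of all genes. For Relb and Nfkbie the highest had to be a TNF array, since all TNF arrays lay above the others. The range over the TNF arrays was 0.49 for Nfkb2, 0.51 for Rela, 0.77 for Relb, 0.61 for Nfkbia, 0.67 for Bcl3, 0.60 for Tnfaip3 and 1.05 for Birc3. The Dex arrays spanned no more than 0.48 in any member, and the CI arrays at most 0.59. Preadipocyte and fibroblast markers averaged 11.63 in TNF replicate 1, 11.42 in replicate 2 and 11.57 in replicate 3, and the leukocyte markers 7.39, 7.39 and 7.31, and the part of either in this spread was not tested. Without TNF replicate 1, Relb and Nfkbie were still called against both other models. In CI, replicate 2 exceeded replicate 1 in 7 of the 9 members, against 52.8% of all genes.

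**Figure D4:**
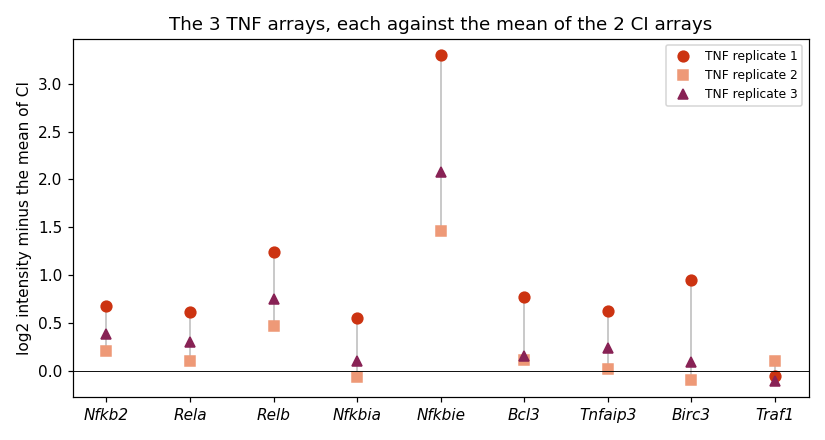
Log2 intensity of each TNF array minus the mean of the 2 CI arrays (vertical axis) for the 9 members (horizontal axis), with a marker for each TNF replicate and a grey line over their range. Replicate 1 was the highest and replicate 2 the lowest of the 3 in every member but Traf1.

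The order of the TNF arrays was also read in a list of genes known as NF-kB effector targets, chosen with earlier results of these data known. Whether NF-kB set their levels in these samples was not tested. Of 25 measured NF-kB effector targets, 12 rose in TNF against CI and 1 fell, where 3.00% of all genes rose and 5.23% fell. The median difference of the 25 was 0.24, beside 0.03 over all genes. TNF replicate 1 was the highest TNF array in 19 of them, against 34.5% of all genes. It was the highest of all 8 arrays in 16 of the 25, against 14.4% of all genes. These shares are not alike, because in 14 of the 25 every TNF array lay above all CI and Dex arrays, against 9.78% of all genes. In those 14 the highest array had to be a TNF array. The order of the members, with replicate 1 highest and replicate 2 lowest in TNF, was found in 13 of the 25, against 19.4% of all genes. The chemokine Ccl5 lay at 12.71, 12.73 and 12.80 in TNF, against 8.60 and 8.70 in CI. The growth factor gene Csf1, which supports macrophages, lay at 12.56, 11.82 and 12.01 in TNF, against 10.83 and 10.73 in CI, and so showed the same order as the members. These 2 examples were chosen for their TNF arrays after the values were seen. For Dex minus CI, 1 effector target rose and 6 fell, where 3.33% of all genes rose and 5.67% fell.

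Other genes of the pathway were read from 4 lists of subunits, kinases, receptor adaptors and brakes, of which 41 of 45 genes were measured. Against CI, 5 rose and 3 fell in TNF, and 2 rose and 5 fell in Dex, with medians of -0.06 and -0.04. Over all genes 3.00% rose and 5.23% fell in TNF, and 3.33% rose and 5.67% fell in Dex, with medians of 0.03 and 0.02. Between TNF and Dex, 4 were higher in TNF and 2 lower, where 4.14% of all genes were higher and 3.16% lower. The lists were chosen with earlier results of these data known.

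Among them the kinase Ikbke, an inducible relative of the IkB kinases that has been tied to energy balance in mouse fat, stood out in TNF. It lay at 7.65 and 7.71 in CI, 9.24, 8.78 and 9.12 in TNF, with 7.85, 7.80 and 7.62 in Dex. The difference was 1.37 ± 0.12 from CI (limma adjusted p = 2.7e-05) and 1.30 ± 0.11 from Dex (limma adjusted p = 9.4e-06). Of the classical kinase, Ikbkb and Ikbkg were measured and not called, with 0.04 and -0.09 in TNF minus CI. Its other catalytic subunit, Chuk, was listed but not measured. Ikbkg differed by -0.45 ± 0.08 in TNF minus Dex (limma adjusted p = 0.00224) and by 0.35 ± 0.09 in Dex minus CI (limma adjusted p = 0.0165), both below the threshold on size. Nfkbiz, a nuclear IkB protein that is needed for part of the inflammatory response, rose in TNF against CI by 0.88 ± 0.13 (limma adjusted p = 0.000851). With the median of its probe sets Nfkbiz did not pass (0.23, limma adjusted p = 0.0921). It also differed by 0.46 ± 0.13 in Dex minus CI (limma adjusted p = 0.0315) and by 0.42 ± 0.12 in TNF minus Dex (limma adjusted p = 0.0273), both below the threshold on size. The subunit Rel was lower in Dex than in CI (-0.61 ± 0.09), at 6.43 to 6.63 against 7.07 and 7.15, levels below the median gene.

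The brakes other than the members moved in different directions. Tnip1, whose product binds that of Tnfaip3, rose in TNF by 0.63 ± 0.14 (limma adjusted p = 0.00885), and the call was lost without CI replicate 1 (0.60), CI replicate 2 (0.66) or TNF replicate 1 (0.48). Pdlim2, which directs nuclear NF-kB to destruction, rose in TNF by 0.56 ± 0.12 against CI, not without CI replicate 1 (0.52, limma adjusted p = 0.0627) or TNF replicate 1 (0.43). It was also higher than in Dex by 0.66 ± 0.11. Zfp36, which hastens the decay of cytokine RNAs and which glucocorticoids induce, lay at 10.33, 10.45 and 9.97 in Dex, above 8.94 and 9.04 in CI and 8.72, 8.68 and 8.71 in TNF. It rose in Dex by 1.26 ± 0.12 against CI (limma adjusted p = 2.05e-05). Rnf11, a partner of the Tnfaip3 enzyme, fell against CI by 0.58 ± 0.08 in TNF and by 0.92 ± 0.08 in Dex. Usp18 and Nlrc5, which interferon also induces, were lower in Dex than in CI (-3.80 ± 0.30 and -1.04 ± 0.11), and Usp18 fell in TNF as well (-2.11 ± 0.30).

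At the receptor, the gene of the second TNF receptor, Tnfrsf1b, was higher than in CI both in TNF (0.56 ± 0.10) and in Dex (0.71 ± 0.10), the former not without CI replicate 1 (0.46). With the median of its probe sets neither passed (0.32 and 0.49). The main receptor Tnfrsf1a differed from CI by -0.06 in TNF and -0.02 in Dex. The adaptor Traf2 was lower in Dex than in CI (-0.52 ± 0.08), though not without CI replicate 2 (-0.44), and Tab3, which links the receptor complex to its kinase, was lower in TNF than in CI (-0.63 ± 0.09) and than in Dex (-0.54 ± 0.08), the latter not without TNF replicate 2 (-0.46).

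**Figure D5:**
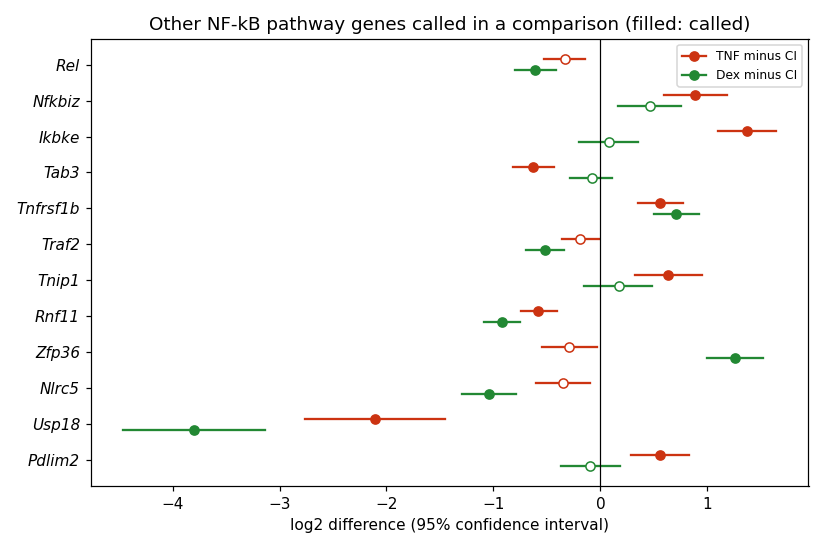
Log2 difference from CI (horizontal axis) with its 95% confidence interval in TNF and in Dex, for the 12 other pathway genes called in at least 1 comparison, with filled points for calls. Ikbke was highest in TNF minus CI (1.37) and Zfp36 in Dex minus CI (1.26).

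Genes with the most similar course over the 8 arrays were found by the root mean square difference of gene-centred log2 values. For Relb these were Tpbg (0.0919), the death receptor gene Fas (0.109) and Il13ra2 (0.117), where Relb itself deviated from its mean by 0.536. For Nfkbie, which deviated by 1.35, the nearest were Plscr2 (0.418), the chemokine Ccl2 (0.419) and the adhesion molecule Vcam1 (0.447), all of them highest in TNF and lowest in Dex. For Nfkbia (0.293) they were Cdt1 (0.0805), Lpin3 (0.108) and Rab20 (0.110), all highest in Dex and lowest in CI. These distances are a description of 8 arrays.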

How the data were processed

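Total RNA of the 8 samples was hybridised as biotin-labelled cRNA to Affymetrix Mouse Genome 430 2.0 arrays. The authors deposited an intensity for each probe set, not log-transformed, between 6.14 and 24273.6. RMA in affyPLM, with its background correction and normalization, is the processing given in the methods of the study, but no source used here says whether these intensities are RMA values brought back to the linear scale. From the deposited intensities log2 was taken with no pseudocount. Precision was limited by how few arrays there were.

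Groups came from the sample titles. Of all 45101 probe sets, 34958 had exactly 1 symbol in GEO's platform annotation, 932 held several and 9211 none, counted before 64 control probe sets were removed. After that removal, the probe sets with 1 symbol were reduced to the set with the highest mean per gene, which gave 18193 genes. A single limma model (version 3.58.1, R 4.3.3) held all 3 groups, two-sided, with Benjamini-Hochberg adjustment over all genes, 5 residual degrees of freedom and the thresholds of the study's methods. The fit was also run on simulated data with known differences and independent noise in each gene and array. That setting holds no shift shared by many genes of an array, so it does not bear on the shared order of the TNF arrays. All members were named whatever their values, other pathway genes and effector targets could be named when called in a comparison, and the nearest genes for the 3 members with the largest difference. The effector targets named were picked from the called ones after their values were seen. Outside the rule, and also picked after their values were seen, were Ikbkb, Ikbkg, Tnfrsf1a and the macrophage and leukocyte markers named above. The members and lists were chosen with earlier results of these data known. Alternatives covered scaling, a pseudocount of 16, a filter on low genes, the probe set of a gene, the replicate number as a block, the arrays fitted, the variance prior and each array left out. Their use on the other pathway genes and probe sets was chosen after seeing the data. Figures were drawn with Python 3.11.15.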

Additional observations from a re-analysis of the deposited data

How the results depend on the processing

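With other scalings, the pseudocount, other variance priors or only the arrays compared, the same number of members was called in each comparison. With genes below the median gene left out, Nfkbie, Bcl3 and Traf1 were not tested. Of the members that remained, 1 was called for TNF minus CI and 1 for TNF minus Dex. With every probe set as a feature, the features called numbered 2992 for TNF minus CI, 3305 for Dex minus CI and 2583 for TNF minus Dex, against 1496, 1637 and 1328 genes, since more features were tested. With 1 array left out, the number of members called ran from 1 to 3 for TNF minus CI, from 0 to 1 for Dex minus CI and from 2 to 4 for TNF minus Dex. Without CI replicate 1 it was 1 for TNF minus CI and 0 for Dex minus CI, and without TNF replicate 2 it was 4 for TNF minus Dex.

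The sign of some uncalled differences changed. With the median of the probe sets of a gene, Traf1 gave 0.13, 0.08 and 0.05 in the order of comparisons above, Tnfaip3 gave -0.01 for Dex minus CI, and Nfkbia was called for TNF minus Dex (-0.65, limma adjusted p = 0.0154). With 1 array left out, Traf1 ran from -0.22 to 0.18, from -0.21 to 0.19 and from -0.07 to 0.03. For Dex minus CI, Nfkb2 ran from -0.10 to 0.15, Tnfaip3 from -0.18 to 0.30 and Bcl3 from -0.18 to 0.12. Birc3 ran from -0.01 to 0.52 for TNF minus CI and Rela from -0.03 to 0.23 for TNF minus Dex.

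The samples share replicate numbers, but nothing in the labels pairs them. Deviations of same-numbered arrays from their group means correlated from -0.095 to 0.33 across genes, and not every array correlated best with its own number. With the replicate number as a block, Nfkb2 was called for TNF minus CI (0.50, limma adjusted p = 0.0448), so that 3 members were called, and for Dex minus CI the sign of Bcl3 (0.03) and Traf1 (0.01) changed.

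Of the other named genes, Cxcl10 did not pass for TNF minus CI with the trended and robust prior (limma adjusted p = 0.0605), and Traf2 did not pass for Dex minus CI after quantile normalization (-0.48). The share of called genes that were higher was 36.4% for TNF minus CI, 45.0% after quantile normalization and 33.8% with each array centred on its median. The cause of these changes was not tested.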

Other observations

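Some NF-kB effector targets set CI and Dex apart although no member but Nfkbia did. The cytokine gene Il6 lay at 7.47 and 7.63 in CI, 8.21, 7.10 and 7.18 in TNF, with 5.47, 5.42 and 5.58 in Dex, so that it was lower in Dex than in CI (-2.06 ± 0.25, limma adjusted p = 0.000136) while TNF and CI overlapped (-0.05 ± 0.25, limma adjusted p = 0.899). The chemokine Cxcl5 was lower in Dex than in CI (-3.02 ± 0.19, limma adjusted p = 8.34e-07) and higher in TNF than in CI by 2.80 ± 0.19. The interferon-responsive chemokine Cxcl10 was highest in CI, at 10.53 and 10.59, against 9.94, 8.35 and 8.65 in TNF and 6.63, 6.07 and 6.17 in Dex. Its fall in TNF (-1.58 ± 0.35) was not called without CI replicate 2 (limma adjusted p = 0.0681). The survival gene Ier3 was the exception in Dex, where it was higher than in CI (0.65 ± 0.17, limma adjusted p = 0.0202), not without CI replicate 1 (0.47, limma adjusted p = 0.189) or Dex replicate 2 (limma adjusted p = 0.0628). Untreated cells, against which each model could be set, were not analysed here.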
